A study of Arabidopsis thaliana with 6 samples.

Results

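Transcript levels after 4 h of dexamethasone were compared with those after 1 h in sorted lateral root cap cells of Arabidopsis thaliana. The comparison took the 4 arrays whose titles name a dexamethasone treatment, out of 6 in the series, and all 22746 probe sets that are not array controls. The cells came from 5-day-old seedlings of the C24 ecotype carrying J2632-UAS::ARR1ΔDDK-GR, and the labels call the 2 arrays of each group biological replicates. One group had been treated with dexamethasone for 4 h and the other for 1 h; the remaining 2 arrays were of the same line, untreated.

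ARR1 is a type-B response regulator, a transcription factor at the end of the cytokinin signalling chain. The ΔDDK form lacks the receiver domain that keeps the protein inactive without cytokinin, and the fused glucocorticoid receptor part holds it in the cytoplasm until dexamethasone is given. The lateral root cap is the outer sheath of the root tip, which secretes polysaccharides, sheds its cells and carries auxin along the root surface. Early samples after such an induction are nearer to direct targets of the factor, and later ones also hold the changes that follow.

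The J2632 enhancer trap drives both the fluorescence used for the sort and the fusion protein, so the cells collected were those in which the trap was active. Every group carried it. Effects of dexamethasone, of sorting and of elapsed time cannot be told apart from those of the induced protein, and in sorted RNA fewer cells of a type cannot be told apart from less RNA per cell. Signals are given as log2 of the deposited value plus 16, quantile normalized, and differences are 4 h minus 1 h on that scale. A probe set counted as above background on an array when it exceeded the 95th percentile of 27 Bacillus subtilis control probe sets. That level was 33.4 and 31.9 in deposited units at 4 h, against 43.2 and 47.1 at 1 h, and 65.4% and 67.8% of probe sets exceeded it at 4 h, against 63.7% and 58.1% at 1 h. A level below background was thus called more readily at 1 h.

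The 4 h arrays were more alike than arrays of different groups, and the 1 h arrays were about as alike. Across probe sets, r between the log2 signals of the 4 h replicates was 0.972, and between those of the 1 h replicates 0.958, against 0.954 to 0.958 between arrays of the 2 groups. The median gap between replicates was 0.23 at 4 h and 0.31 at 1 h. The hybridization controls, 9 spiked probe sets, lay 0.60 above their mean over the arrays on 1 h replicate 1 and between -0.27 and 0.03 on the other dexamethasone arrays.

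The label of the cells was checked against the few marker genes with a single-gene probe set. These were 3 of 8 for epidermis and root hair and 3 of 8 for cortex and endodermis. For quiescent centre and meristem 1 of 5 was measured, and for the root cap 3 of 9. AT5G54370, an abundant root cap gene, measured 14.68 and 14.68 at 4 h, against 14.78 and 14.63 at 1 h, near the top of the signal range. The epidermal gene EXPA7, the quiescent centre gene AGL42, and JKD and AT1G62500 of cortex and endodermis exceeded background on none of the 4 dexamethasone arrays. EXPA18 did so on 1 array at 1 h, GH9C1 on 1 array at 4 h, and GSO1 on both at 4 h. No stele marker of the list had a probe set with 1 gene, so the stele was not checked.

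Few probe sets passed the adjusted threshold, and those that did differed by 7.28-fold or more. With 2 arrays per group, probe sets that missed it were not shown to be unchanged. In limma, with p-values adjusted by the Benjamini-Hochberg method, 5 of 22746 probe sets (0.022%) passed an adjusted p of 0.05, of which 3 (0.0132%) were higher and 2 (0.00879%) lower at 4 h. The only one with a gene name was YLS5 (AT2G38860), a member of the DJ-1 family that was first described among genes of leaf senescence. The annotation used here pairs the other 4 with no single gene, and they are given by their identifiers.

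The largest of the 5 changes was that of 253534_at. Its log2 signal was 6.02 and 6.61 at 4 h, against 11.42 and 11.39 at 1 h. The 4 h arrays were still above background, far below both 1 h arrays, and the groups did not overlap, as in 43.8% of all probe sets. The difference was -5.09 (SE 0.26, limma adjusted p = 0.0133), or 34.1-fold lower at 4 h on the scale of signal plus 16. Untreated cells measured 10.99 and 11.01, beside the 1 h level.

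YLS5 fell as well. It measured 9.47 and 9.69 at 4 h, against 12.44 and 12.46 at 1 h. Both 4 h arrays were well below both 1 h arrays, although the transcript stayed in the upper part of the signal range. The difference was -2.86 (SE 0.22, limma adjusted p = 0.0386), or 7.28-fold, and untreated cells measured 12.15 and 12.05.

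The other 3 probe sets rose. The signal of 252123_at was 10.91 and 10.88 at 4 h, against 7.64 and 7.26 at 1 h, a difference of 3.45 (SE 0.24, limma adjusted p = 0.0378) and 10.9-fold. Both 4 h arrays lay above both 1 h arrays by more than 3 log2 units. That of 248625_at was 9.43 and 9.63 at 4 h, against 5.98 and 5.94 at 1 h, a difference of 3.57 (SE 0.27, limma adjusted p = 0.0386) and 11.9-fold.

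The last of the 3, 250533_at, measured 9.49 and 9.29 at 4 h, against 6.17 and 6.34 at 1 h. The groups did not overlap, and the difference was 3.14 (SE 0.26, limma adjusted p = 0.0487), or 8.79-fold. In untreated cells the means of these 3 probe sets were 8.20 for 252123_at, 6.48 for 248625_at and 6.59 for 250533_at, nearer to 1 h than to 4 h. The change between 1 h and untreated and the change between 4 h and untreated share the untreated arrays and are not independent.

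**Figure D1:**
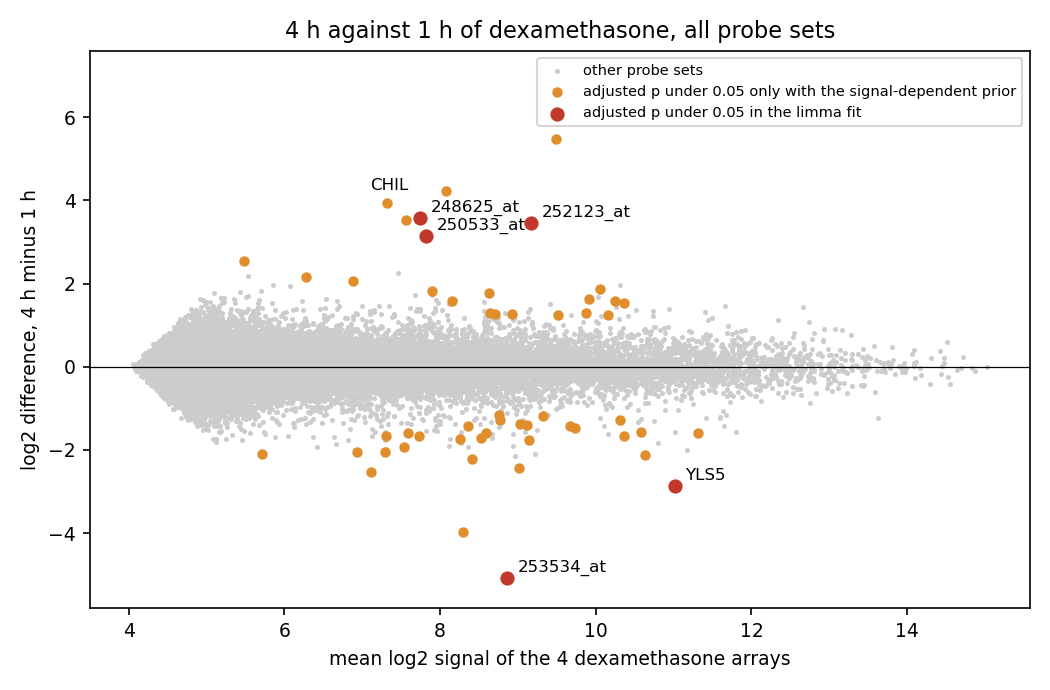
Log2 difference (4 h minus 1 h) of every probe set against its mean log2 signal over the 4 dexamethasone arrays. Large points passed limma's adjusted p of 0.05, medium points passed only when the prior variance followed the signal, and small grey points passed neither; the 5 large points lie between -5.09 and 3.57.

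These 5 calls depended on the arrays and settings used. Leaving out any 1 of the 6 arrays left 0, and a pseudocount of 64 in place of 16 gave 42. The spread between replicates fell with signal: the median within-group SD was 0.44 in the dimmest of 4 equal classes of probe sets and 0.19 in the brightest. When limma's prior variance followed the signal, 53 probe sets passed (0.233%), 23 higher (0.101%) and 30 lower (0.132%) at 4 h. All 53 differed by at least 1.16 in size, and 21 of them carry 1 gene.

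Of those 53, YLS5, 252123_at and 253534_at passed when any 1 of the 6 arrays was left out. Another 4 passed in 3 of the 6 cases and the other 46 in 2. The count was 5 without 4 h replicate 1, 3 without 4 h replicate 2, 7 without 1 h replicate 1 and 3 without 1 h replicate 2. It was 223 and 207 without untreated replicate 1 and untreated replicate 2. Genes described below as past the signal-following prior rest on this second fit and missed the first.

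The largest difference upward under the second fit belonged to an unnamed probe set, 250207_at. It measured 12.36 and 12.11 at 4 h, against 7.32 and 6.18 at 1 h, a difference of 5.48 (SE 0.47, limma adjusted p = 0.0554). The 1 h replicates differed by more than 1 log2 unit from each other, and both lay far below the 4 h arrays. Untreated cells were in between, at 9.92 and 8.92.

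Another pair of unnamed probe sets moved by a similar amount. For 251827_at the signal was 10.36 and 10.01 at 4 h, against 6.37 and 5.54 at 1 h, a difference of 4.23 (SE 0.40, limma adjusted p = 0.0713). For 260387_at it was 6.20 and 6.42 at 4 h, against 10.47 and 10.11 at 1 h, a difference of -3.98 (SE 0.44, limma adjusted p = 0.118). In each the groups stood clear of each other. These 3 were picked out after their values were seen, as the largest among the unnamed probe sets that passed only the second fit.

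CHIL, a gene of flavonoid synthesis, had the highest difference of the genes named by rule. Of the pathway's genes with a single-gene probe set, it alone was past the signal-following prior. Unnamed probe sets past either fit may belong to other genes of the pathway. Flavonoids are phenolic compounds made from a chalcone, and they are known to slow auxin transport in roots. Of the 20 genes listed, 7 were measured through a single-gene probe set. Of these, 6 were higher and 1 lower at 4 h, with a median of 0.41, against -0.0031 over all probe sets, of which 49.6% were higher in sign. An unadjusted p under 0.05 was reached by 3, all higher, where 4.68% of all probe sets reached it with a higher signal at 4 h.

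CHIL (AT5G05270), a chalcone isomerase relative without the enzyme's activity that aids chalcone formation, measured 9.29 and 9.30 at 4 h, against 5.79 and 4.91 at 1 h. Both 4 h arrays were high and almost identical, and on 1 h replicate 2 the gene was below background. The difference was 3.95 (SE 0.36), with a limma adjusted p of 0.0612; over 14 other settings the adjusted p ranged from 0.00162 to 0.68, and CHIL passed in 5 of them.

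The other measured flavonoid genes that stood out were glycosyltransferases, which attach sugars to finished flavonols. AT1G06000, a flavonol 7-O-rhamnosyltransferase, measured 8.45 and 8.28 at 4 h, against 6.94 and 7.11 at 1 h, a difference of 1.34 (SE 0.23, limma adjusted p = 0.28). UGT78D2, a flavonoid 3-O-glucosyltransferase, measured 8.43 and 8.27 at 4 h, against 7.35 and 7.49 at 1 h, a difference of 0.93 (SE 0.22, limma adjusted p = 0.339). In both the 4 h arrays lay above the 1 h arrays without overlap, and neither passed.

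DFR, the dihydroflavonol reductase of the anthocyanin branch, went the other way in sign, with 5.88 and 5.62 at 4 h, against 6.25 and 6.09 at 1 h. Its difference of -0.42 had an unadjusted p of 0.116 in limma. Of the remaining 3 members, UGT78D1 was below background on all 4 arrays, and UGT78D3 and the anthocyanidin reductase BAN were so on both 1 h arrays. Leaving out 1 h replicate 2 moved the median of the list to 1.01, and leaving out 4 h replicate 1 moved it to 0.85. With a pseudocount of 64 it was 0.17, and with a pseudocount of 1 it was 1.00.

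The tryptophan and indole glucosinolate lists had 1 gene each with a single-gene probe set. Their other genes could not be identified, and unnamed probe sets, including ones that passed, may belong to them. Indole glucosinolates are defence compounds made from tryptophan, a route that also feeds auxin synthesis. UGT74B1, the glucosyltransferase of the glucosinolate core, was the only gene measured of 18 on the indole glucosinolate list. It was at 7.09 and 7.22 at 4 h, against 8.98 and 9.17 at 1 h, a difference of -1.92 (SE 0.37, limma adjusted p = 0.292). It passed neither fit; the 4 h pair was low and tight, and the untreated pair was wide, at 9.71 and 8.64.

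AT2G04400, indole-3-glycerol phosphate synthase of the tryptophan pathway, was the only one measured of 10 tryptophan genes. It was at 8.53 and 8.29 at 4 h, against 9.90 and 9.74 at 1 h. The groups did not overlap, and the difference of -1.41 (SE 0.26, limma adjusted p = 0.292) was past the signal-following prior. The 2 aliphatic glucosinolate genes measured, BCAT4 and GSTU20, differed by 0.26 and 0.13 and exceeded background on at most 1 of the 4 dexamethasone arrays.

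**Figure D2:**
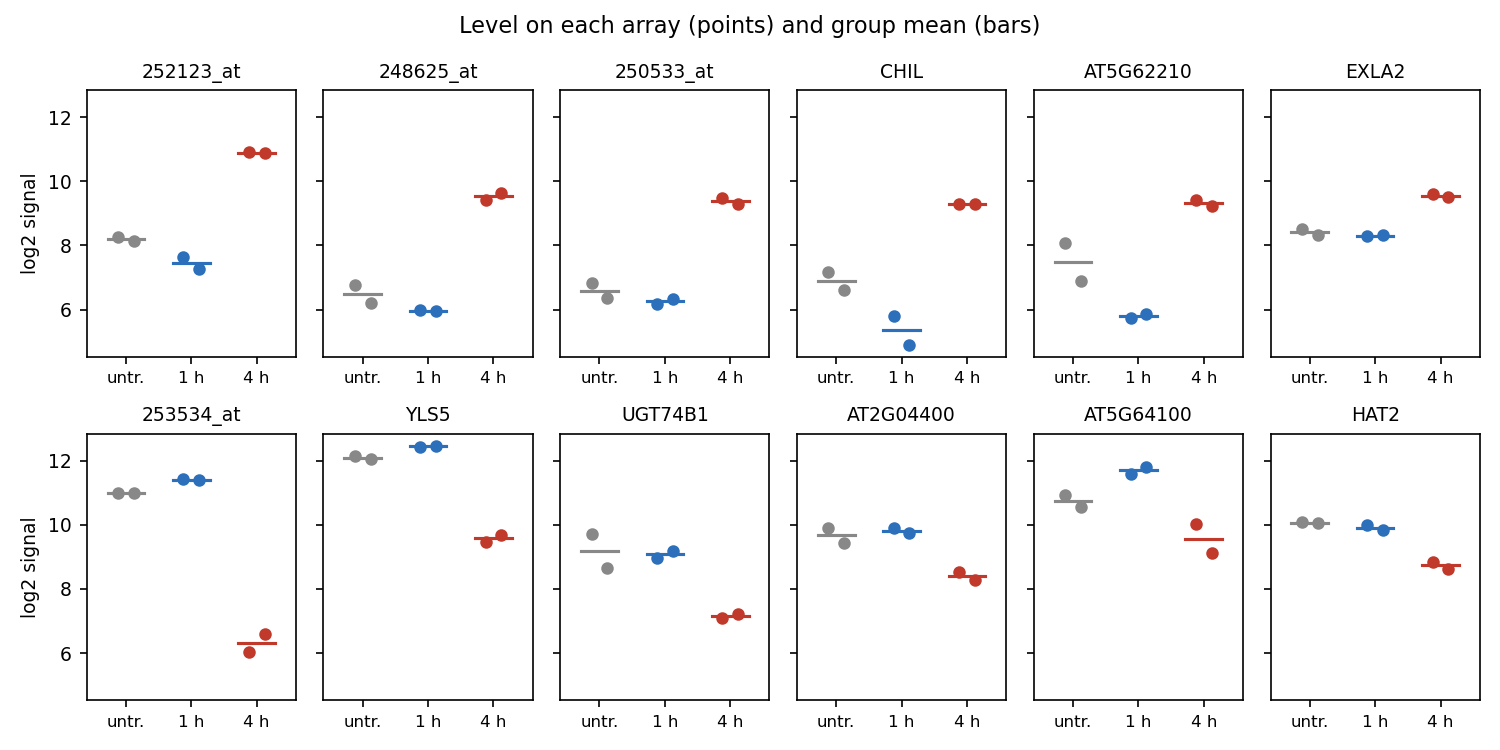
Log2 signal on each array for 12 probe sets, in untreated cells (untr.), after 1 h and after 4 h of dexamethasone; points are arrays, bars are the means of 2. The upper panels were higher and the lower ones lower at 4 h than at 1 h, and in each panel the 4 h pair lies clear of the 1 h pair.

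Other named genes past the signal-following prior were spread over enzymes, transporters and regulators. Among those higher at 4 h, AT5G62210 measured 9.43 and 9.22 at 4 h, against 5.73 and 5.86 at 1 h. Its difference of 3.53 (SE 0.40, limma adjusted p = 0.118) was 11.5-fold, and the 4 h arrays stood far above the 1 h arrays, of which 1 was below background. The untreated arrays of this gene differed from each other, at 8.07 and 6.88.

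AT2G22760, a basic helix-loop-helix factor, measured 8.70 and 8.91 at 4 h, against 7.05 and 6.93 at 1 h, a difference of 1.82 (SE 0.24, limma adjusted p = 0.202). AT1G72140, a transporter of the nitrate and peptide family, measured 10.99 and 11.27 at 4 h, against 9.78 and 9.41 at 1 h, a difference of 1.54 (SE 0.25, limma adjusted p = 0.28). Both were without overlap between the groups. AT1G66800, a dehydrogenase of the cinnamyl alcohol dehydrogenase type, differed by 1.87, and AT5G62420, an aldo-keto reductase, by 1.29.

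Unadjusted p-values placed 5 further genes among the 12 named upward, although they missed the second fit too. AT5G17010, a sugar transporter relative, differed by 1.47. The other 4 were below background on both 1 h arrays and have only a bound. For AT2G39280 the 4 h level was at least 1.72-fold higher, and for AT4G38660, a thaumatin-like protein, at least 1.48-fold. For the receptor-like kinases AT5G48740 and AT3G19300 the bounds were 1.14-fold and 1.01-fold.

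Among named genes lower at 4 h and past the signal-following prior, AT5G01210, an acyltransferase, measured 5.95 and 5.88 at 4 h, against 7.96 and 7.97 at 1 h. Its difference was -2.05 (SE 0.21, limma adjusted p = 0.101), with replicates almost identical in both groups. OSM34, an osmotin of the thaumatin family, measured 7.72 and 7.63 at 4 h, against 9.49 and 9.27 at 1 h, a difference of -1.71 (SE 0.24, limma adjusted p = 0.224). The groups did not overlap for either gene.

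HAT2, a homeodomain leucine zipper factor known to respond to auxin, averaged 8.74 ± 0.16 at 4 h and 9.92 ± 0.12 at 1 h (SD, n = 2 each). Both 4 h arrays were lower than all other arrays, and the difference was -1.18 (SE 0.22, limma adjusted p = 0.292). AT5G40450 differed by -1.94, AT3G19320 by -1.66, AT4G35200 by -1.59 and AT5G02480 by -1.37. AT1G15640 was below background on both 4 h arrays and at least 2.23-fold higher at 1 h.

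Cell wall genes moved in both directions. Expansins loosen walls and xyloglucan endotransglucosylases cut and rejoin wall polymers. Of 27 such genes measured, 15 were higher and 12 lower at 4 h, with a median of 0.03. An unadjusted p under 0.05 was reached by 5 with a higher and 1 with a lower signal, beside 4.68% and 4.56% of all probe sets. Of the 5, EXPA24 was below background on all 4 dexamethasone arrays and EXPA16 on 3.

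EXLA2, an expansin-like protein, measured 9.59 and 9.52 at 4 h, against 8.28 and 8.31 at 1 h. The arrays of a group agreed closely, and the difference of 1.26 (SE 0.22, limma adjusted p = 0.28) was past the signal-following prior. EXPA4 measured 8.09 and 8.06 at 4 h, against 6.30 and 6.94 at 1 h, a difference of 1.45 (SE 0.30, limma adjusted p = 0.311). EXLA1 differed by 0.72, and the beta-expansin EXPB1 by -0.96; neither passed. Among abundant members, EXPA9 differed by 0.20, XTH19 by 0.18 and XTH18 by 0.23.

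Enzymes of glycosyl hydrolase family 9, the plant endoglucanases, held 1 large value in each direction. This family was added after values had been seen. GH9B13 measured 7.82 and 6.78 at 4 h, against 9.44 and 9.60 at 1 h, a difference of -2.22 (SE 0.38, limma adjusted p = 0.28) past the signal-following prior. GH9B6 measured 8.72 and 8.44 at 4 h, against 6.36 and 6.30 at 1 h, a difference of 2.25 (SE 0.54, limma adjusted p = 0.347). Neither pair of groups overlapped, but the untreated arrays of GH9B6 were far apart, at 8.85 and 7.07. Over the 15 members measured, 4 were higher and 11 lower, with a median of -0.12.

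The pectin-related genes measured were lower in sign, several of them near background. AT2G43890, of the polygalacturonase type, measured 8.09 and 7.51 at 4 h, against 9.84 and 10.61 at 1 h, a difference of -2.43 (SE 0.34, limma adjusted p = 0.224) past the signal-following prior. The groups were separated by more than 1 log2 unit. All 4 pectin enzymes measured on the list were lower, with a median of -0.61 and 0 at an unadjusted p under 0.05 in limma. The share of all probe sets lower in sign was 50.3%. Only ATPMEPCRB exceeded background on all 4 dexamethasone arrays. PME61 and PMEPCRF did so on 1 array at 4 h. AT4G02300 did so on 1 array at 1 h, and its groups overlapped, at 4.52 and 4.63 at 4 h, against 5.81 and 4.39 at 1 h. Of 9 cellulose synthase family genes, 3 were higher and 6 lower, and CSLA03, a mannan synthase relative, differed by -1.19 with its 4 h arrays at 7.46 and 6.15.

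Class III peroxidases, secreted enzymes that stiffen walls or handle hydrogen peroxide, included several large differences downward. The family was followed by its 73 loci after values had been seen, and 55 were measured. Of these 23 were higher and 32 lower, with a median of -0.20. An unadjusted p under 0.05 was reached by 10 with a lower and 2 with a higher signal, beside 4.56% and 4.68% of all probe sets. By the stricter rule of a 2-fold difference without overlap, with the brighter group above background, 7 were lower and 2 higher, where 1% of all probe sets were lower and 1.22% higher.

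AT5G64100 measured 10.03 and 9.12 at 4 h, against 11.59 and 11.80 at 1 h, a difference of -2.12 (SE 0.35, limma adjusted p = 0.28) past the signal-following prior. AT5G17820 measured 8.80 and 6.99 at 4 h, against 9.86 and 10.22 at 1 h, a difference of -2.14 (SE 0.55, limma adjusted p = 0.387). Both were lower at 4 h without overlap, and in both the 4 h replicates lay apart, with replicate 2 the lower.

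AT3G01190 measured 10.53 and 9.23 at 4 h, against 11.31 and 12.12 at 1 h, a difference of -1.83 (SE 0.49, limma adjusted p = 0.399). AT4G30170 measured 11.25 and 10.34 at 4 h, against 12.04 and 12.02 at 1 h, a difference of -1.23 (SE 0.33, limma adjusted p = 0.399). The same order of the 4 h replicates was seen in these. AT5G15180 and AT4G26010 were below background at 4 h, and their 1 h levels were at least 1.42-fold and at least 2.35-fold higher.

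Of the 16 members above background on all 4 dexamethasone arrays, 12 were lower and 4 higher at 4 h, and the 4 h replicate 2 was below replicate 1 in 12. The bright AT5G24070, AT2G39040 and AT2G18980, had groups that overlapped or nearly met. On the higher side, AT5G06730 was below background at 1 h and at least 1.08-fold higher at 4 h. Without 1 h replicate 2 the median of the family was 0.0071, and without 4 h replicate 2 it was -0.32.

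**Figure D3:**
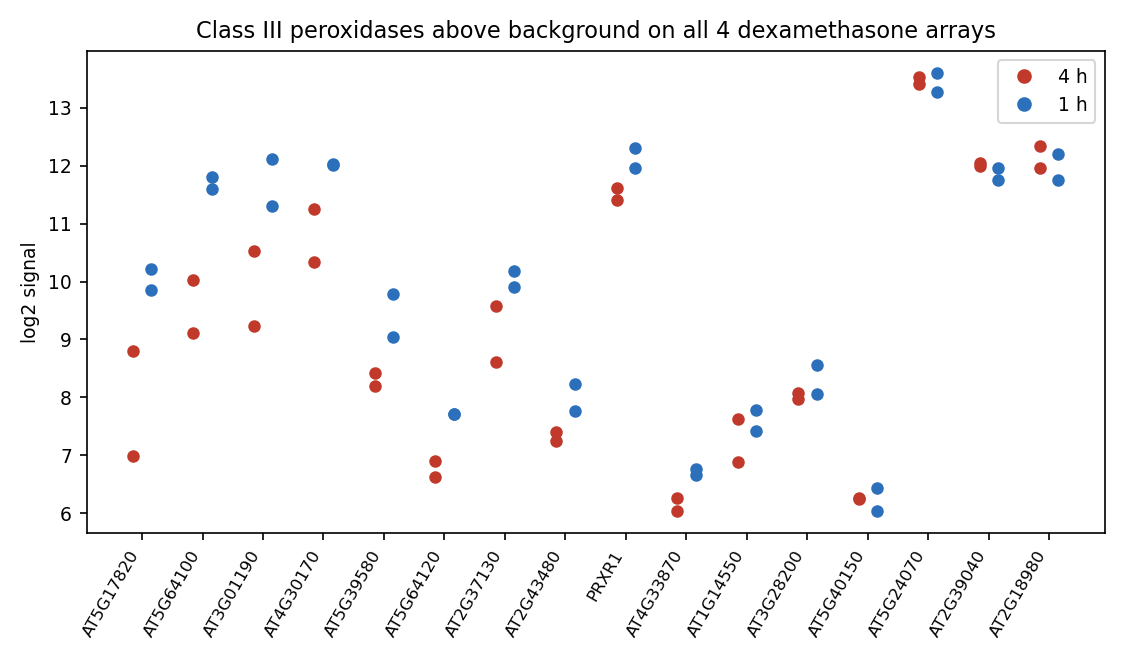
Log2 signal of the 16 class III peroxidases above background on all 4 dexamethasone arrays, ordered by their difference; each point is 1 array, with 4 h left of 1 h for each gene. The difference is -2.14 for AT5G17820 at the left, and the 3 genes at the right have differences near 0.

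No marker of the sorted cells with a single-gene probe set passed in limma. Of 3 root cap markers measured, all were lower in sign at 4 h, with a median of -0.85, and 2 had an unadjusted p under 0.05; over all probe sets 50.3% were lower in sign and 4.56% were lower at that p. The carboxypeptidase gene scpl48 measured 11.21 and 11.38 at 4 h, against 12.33 and 11.96 at 1 h, a difference of -0.85 (SE 0.24, limma adjusted p = 0.41). The polygalacturonase-like AT1G65570 measured 9.96 and 9.50 at 4 h, against 10.63 and 10.60 at 1 h, a difference of -0.88 (SE 0.26, limma adjusted p = 0.414). Neither passed. AT5G54370 differed by -0.03, at a level so near the top of the range that a change may not have been readable.

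No hormone gene with a single-gene probe set passed in limma. Among 7 genes of auxin conjugation and oxidation, 3 were higher and 4 lower, with a median of -0.22. GH3.17, which joins auxin to an amino acid, measured 11.64 and 11.63 at 4 h, against 10.67 and 10.93 at 1 h. The 4 h pair lay above the 1 h pair, and the difference of 0.83 (SE 0.23, limma adjusted p = 0.402) did not pass. IAA30, of the Aux/IAA repressor family, measured 6.59 and 6.39 at 4 h, against 7.10 and 7.66 at 1 h, a difference of -0.89 (SE 0.36, limma adjusted p = 0.526).

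The early cytokinin response could barely be read through the annotation used. Type-A response regulators are rapid targets of type-B factors such as ARR1. Of 10 such genes only ARR15 and RR16 had a single-gene probe set in that annotation, so the others could not be identified among the probe sets. ARR15 exceeded background on 1 array in each group and RR16 on 1 array at 1 h, and their differences of 0.16 and -0.70 had unadjusted p of 0.796 and 0.114 in limma. Among gibberellin receptors, GID1B differed by 0.82 (SE 0.33), GID1C by 0.50 and GID1A by 0.18, and none passed.

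The conjugating and oxidizing enzymes with a single-gene probe set showed no common direction. Of 47 UDP-glycosyltransferases, which attach sugars to small molecules, 26 were higher and 21 lower, with a median of 0.07. UGT71C1 was below background on both 4 h arrays, at 5.24 and 5.20, against 6.98 and 6.80 at 1 h, and was at least 2.42-fold higher at 1 h (limma adjusted p = 0.265). UGT71C3 was below background at 1 h and at least 1.22-fold higher at 4 h, so these members of 1 subfamily had opposite signs.

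Of 24 cytochrome P450 genes with a single-gene probe set, 12 were higher and 12 lower, with a median of 0.0075. Most of them were of the CYP71B subfamily, so the count says little about other P450 genes. CYP71B5 averaged 8.02 ± 0.041 at 4 h and 6.80 ± 0.41 at 1 h (SD, n = 2 each), a difference of 1.22 (SE 0.27, limma adjusted p = 0.325). CYP51G2, which RefSeq lists as a transcribed pseudogene, differed by -1.18; its probe set may share signal with its near copy. Of 13 glutathione transferases, which detoxify by adding glutathione, 4 were higher and 9 lower. GSTU26, a bright member, measured 12.37 and 12.21 at 4 h, against 11.45 and 11.41 at 1 h, a difference of 0.86 (SE 0.22, limma adjusted p = 0.374), with the groups apart.

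**Figure D4:**
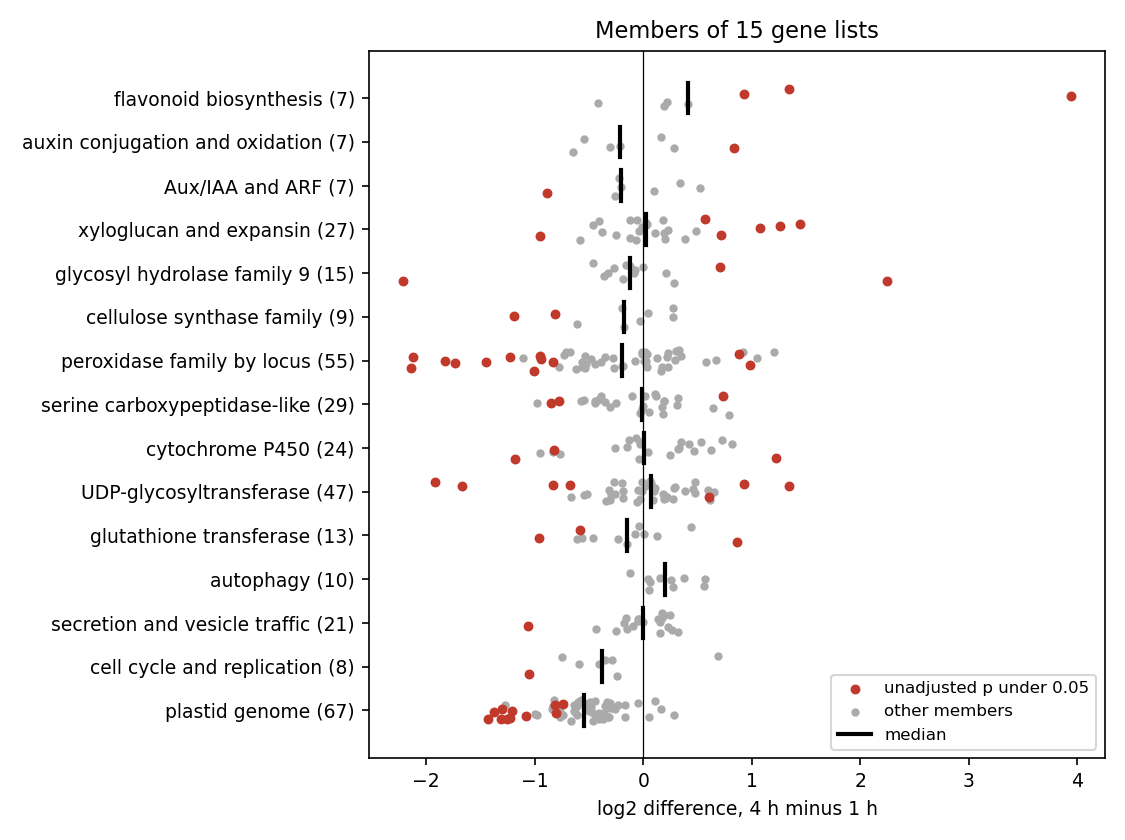
Log2 difference (4 h minus 1 h) of every measured member of 15 gene lists, with the number of members in brackets; the vertical bar is the median, and darker points have an unadjusted p under 0.05 in limma. Medians run from -0.55 for the plastid genome to 0.41 for flavonoid synthesis; the peroxidase and glycosyl hydrolase family 9 lists were added after values were seen, and some genes stand on more than 1 list.

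On the stress, defence and housekeeping lists, no gene with a single-gene probe set passed in limma. STZ, a zinc finger factor of stress responses, measured 13.42 and 13.32 at 4 h, against 13.37 and 13.59 at 1 h, and differed by -0.11. AR781, the other gene measured of those sensitive to protoplasting, differed by 0.54 with an unadjusted p of 0.158 in limma. The 5 reference genes had a median of -0.06, with PEX4 at -0.11 and AT4G34270 at 0.15. WRKY22, a defence factor, measured 9.60 and 9.46 at 4 h, against 10.17 and 10.58 at 1 h, a difference of -0.85 (SE 0.29, limma adjusted p = 0.467).

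Autophagy, secretion and division genes with a single-gene probe set did not pass either. Of 10 autophagy genes 9 were higher in sign, with a median of 0.20, where 49.6% of all probe sets were higher. An unadjusted p under 0.05 in limma was reached by 0 of them, beside 9.24% of all probe sets. The ubiquitin-like ATG8E, ATG8F and ATG8H differed by 0.57 (SE 0.45), 0.56 (SE 0.41) and 0.38 (SE 0.26). Of 21 genes of secretion and vesicle traffic, 10 were higher and 11 lower. Of 8 cell cycle and replication genes 7 were lower, where 50.3% of all probe sets were lower in sign. Among the 7 was the histone H2B gene HTB2, at 7.27 and 7.32 at 4 h, against 8.32 and 8.37 at 1 h. Its difference was -1.05 (SE 0.33, limma adjusted p = 0.436).

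Transcripts of the plastid genome were lower at 4 h than at 1 h in sign almost throughout. They encode parts of the photosynthetic complexes and of the organelle's own ribosome and RNA polymerase. Of 67 measured, 63 were lower and 4 higher, with a median of -0.55, where 50.3% of all probe sets were lower. An unadjusted p under 0.05 was reached by 11, all lower, where 4.56% of all probe sets reached it with a lower signal. No single transcript passed after adjustment in limma.

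By complex, the counts lower in sign were as follows, with 0 transcripts of photosystem I and of cytochrome b6f at an unadjusted p under 0.05 in limma. All 15 ribosomal protein transcripts were lower, with a median of -0.63 and values from -1.37 to -0.044. Of 15 photosystem II transcripts 14 were lower (median -0.61), of 6 ATP synthase transcripts 5 (median -0.70), and of 10 of the NDH complex 8 (median -0.43). All 6 of cytochrome b6f (median -0.59), 5 of photosystem I (median -0.41) and 4 of the RNA polymerase (median -0.35) were lower.

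Single transcripts varied with the 1 h array. The ribosomal transcript rpl14 measured 7.70 and 7.95 at 4 h, against 8.92 and 9.48 at 1 h, and atpB of the ATP synthase 9.83 and 10.06 at 4 h, against 10.72 and 11.70 at 1 h. The polymerase subunit rpoA measured 7.27 and 7.19 at 4 h, against 8.29 and 9.04 at 1 h, a difference of -1.43 (SE 0.50, limma adjusted p = 0.478). In each, 1 h replicate 2 was the highest of the 4 arrays.

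Per array, the median deviation of the 67 transcripts from their own means was -0.41 and -0.26 at 4 h, against 0.04 and 0.52 at 1 h. The untreated arrays lay at -0.31 and 0.40 and spanned both groups. The control probe set for large-subunit ribosomal RNA was 6422 and 6680 at 4 h, against 7668 and 10831 at 1 h, in deposited units; its part in the plastid difference was not tested. The median of the plastid list was -0.90 without 1 h replicate 1 and -0.32 without 1 h replicate 2. Of 8 photosynthesis genes of the nucleus, 5 were higher and 3 lower in sign, with a median of 0.14 and 0 at an unadjusted p under 0.05 in limma.

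**Figure D5:**
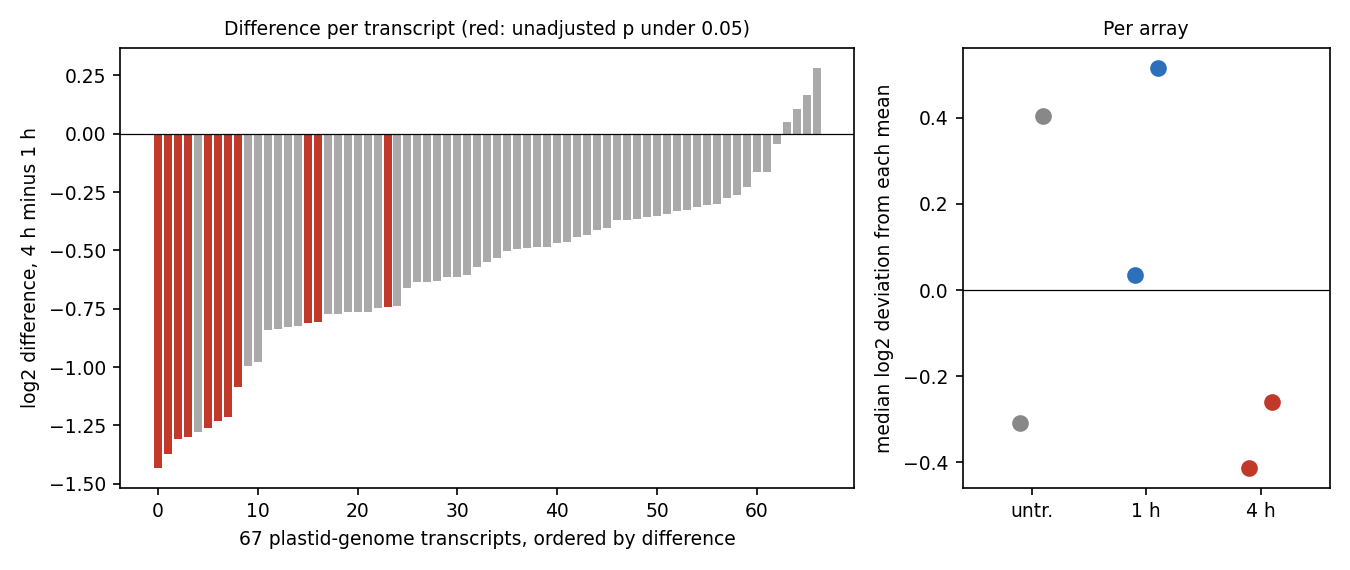
Left, log2 difference (4 h minus 1 h) of each of the 67 plastid transcripts, in order of size, with an unadjusted p under 0.05 in limma in the darker colour. Right, the median deviation of these transcripts from their means on each array, in untreated cells (untr.), after 1 h and after 4 h; both 4 h arrays lie below both 1 h arrays, at -0.41 and -0.26.

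The probe sets that moved between 1 h and 4 h were set beside the untreated arrays. For the 23 past the signal-following prior and higher at 4 h, the median difference was 1.49 for 4 h minus untreated and -0.34 for 1 h minus untreated. For the 30 lower at 4 h these medians were -1.33 and 0.21. Both columns of values use the same untreated arrays, and the probe sets were chosen on the difference between the dexamethasone groups, so the 4 h and 1 h columns are a description.

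Across all probe sets the 2 directions were even. At an unadjusted p under 0.05, 2101 probe sets differed in limma (9.24%), 1064 higher (4.68%) and 1037 lower (4.56%). By the 2-fold rule, 506 differed (2.22%), 278 higher and 228 lower, of which 138 and 129 carry 1 gene. With all 4 dexamethasone arrays above background, the means of 4 h and 1 h differed by 2-fold or more at 288 probe sets. Single replicates of 1 group, both above background, differed by 2-fold or more at 677 probe sets in untreated cells, 148 at 1 h and 49 at 4 h. A gap between single arrays spreads more widely than a difference of means, and the filters are unlike, so these counts are not directly comparable.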

How the data were processed

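RNA of sorted cells was hybridised to Affymetrix ATH1 arrays after 2 rounds of biotin labelling, per the labels' protocols. The deposited table holds 1 linear intensity per probe set and array; the summarising software is not given in the sources used here. Every column has the same mean of 250.03 after trimming 2% at each end. Depth does not apply to arrays; the 2 arrays per group limit the precision.

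From the 22810 rows, 64 control probe sets were left out. Log2 of the intensity plus 16 was quantile normalized, because column medians spanned 0.215 (limit 0.1). One limma 3.58.1 fit (R 4.3.3) with a mean per group on all 6 arrays gave the contrast of 4 h minus 1 h, two-sided, with Benjamini-Hochberg adjustment over 22746 probe sets; p-values are relative to the array-to-array spread within all 3 groups. A second fit let the prior variance follow the signal. Bounds compare the brighter group with background. The test was checked on simulated arrays.

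Genes were named through the platform annotation and RefSeq (TAIR10.1): 13513 probe sets carry 1 gene, 503 several and 8730 are not listed. A list gene counted as measured only through a single-gene probe set. Probe sets that are not listed may belong to genes of the lists, and counts by list leave them out. A gene with several probe sets is represented by the brightest. The named genes were all probe sets that passed, the 12 highest and 12 lowest single-gene probe sets past the second fit (filled by smallest p) and up to 3 per gene list, of which 46 of 49 had a measured member. Wrong family members (21 loci) were removed by function. The comparison and the lists were chosen with earlier results of these data known, and 2 lists and the alternatives of the second fit were added after values were seen. The alternatives were the columns as deposited, other pseudocounts, a background filter, the 4 dexamethasone arrays alone, a replicate block, array weights and leaving out each array. No promoter sequences were used here.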

Additional observations from a re-analysis of the deposited data

Results flagged for a closer look

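At 5 probe sets the 4 h and 1 h groups, each set against untreated, had unlike effects, since limma's contrast between them passed an adjusted p of 0.05. These were 253534_at (-5.09), YLS5 (-2.86), 250533_at (3.14), 252123_at (3.45) and 248625_at (3.57), given as 4 h minus 1 h on the log2 scale. The difference of 253534_at ranged from -5.40 to -4.43 over 14 other settings and that of YLS5 from -2.97 to -2.75. Over the same settings 252123_at ranged from 3.13 to 3.64, 248625_at from 2.84 to 3.94 and 250533_at from 2.53 to 3.42.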

How the results depend on the processing

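The count of 5 probe sets past the threshold was 0 with a pseudocount of 1, 42 with a pseudocount of 64 and 10 after a background filter. It was 53 with the signal-following prior, 0 with the 4 dexamethasone arrays alone, 8 with array weights and 5 with the columns as deposited. Leaving out each array gave 0 to 0, with 1209 to 2535 probe sets at an unadjusted p under 0.05. The count of 53 under the signal-following prior was 107 with the background filter, 216 with the 4 dexamethasone arrays alone, 89 with the replicate block and 137 with array weights, and it ran from 3 to 223 when each array was left out. Some of these settings also had fewer arrays or probe sets in the fit, and the cause of the shifts was not tested. With the replicate number as a block the count was 5, of which 2 were among the main 5. The labels do not say that a number marks a shared day, and same-numbered arrays of 4 h and 1 h had deviations correlated at -0.04, so the numbers were not taken as pairs. Of 1512 combinations of 108 named probe sets and 14 settings, 1423 kept direction and side of the threshold, 39 newly passed, 43 no longer passed and 7 changed sign. The sign changes were those of HCT (-0.036 with the columns as deposited, and -0.13 to 0.24 when each array was left out), PDIL5-1 (-0.32 to 0.18), AT5G54370 (-0.091 to 0.054), bHLH34 (-0.13 to 0.76) and AT4G34270 (-0.0022 to 0.30), each of the last 4 when arrays were left out. Dim probe sets are limited most, since their replicate SD was the largest.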
